A study of Gallus gallus with 2 samples.

Results

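The nuclear-encoded genes of the mitochondrial respiratory chain and ATP synthase were measured in 6C2 cells, a transformed chicken erythroleukemia line. The genes were taken from the deposited gene table by symbol (NDUF genes, SDHA to SDHD, UQCR genes, COX genes with a number, CYC1, CYCS, ATP5 genes and SURF1), with genes of the mitochondrial genome left out. The symbols found 70 genes among 16464 analysed rows of a table of 17934, and no symbol had a second model. They comprised 56 subunits of complexes I to V, 12 assembly factors of complexes I and IV, the electron carrier gene CYCS, and ATP5S, which is named after the synthase but is not counted among its subunits. Genes such as CYC1, SDHC, NDUFV1, ATP5B and ATP5C1 were not analysed here.

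The series held 1 group of 2 samples of total RNA from untreated 6C2 cells, which the labels describe as cycling and as halted at the colony-forming stage of red cell development. No treatment or genotype is given, and 6C2 is a single line. Nothing in the labels tells whether separate cultures were used, and the spread of the samples may be technical only. With 1 group, levels were compared between genes and complexes, and no test between groups of samples could be made.

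The respiratory chain passes electrons from NADH, through complex I, or from succinate, through complex II, to ubiquinone and on to complex III, cytochrome c and complex IV, which reduces oxygen. Complexes I, III and IV pump protons out of the matrix, and complex V, the ATP synthase, lets them back to make ATP. Subunits of complexes I, III, IV and V are split between the nuclear and mitochondrial genomes, while complex II is all nuclear. Red cell precursors need mitochondria for respiration and for heme synthesis, and mature chicken red cells, unlike those of mammals, keep their nucleus.

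The counts of the analysed rows summed to 40064443 for replicate 1 and 30668939 for replicate 2, of which the respiratory chain genes took 0.697% and 0.680%. The library totals worked back from the deposited RPKM were slightly smaller, at 39711334 and 30405308, and the reason was not tested. Levels are given as the deposited RPKM, in which reads are divided by the length of the gene model and by the size of the library. Small RNAs took 33.0% of the reads in replicate 1 and 34.5% in replicate 2, which lowers the RPKM of all other genes alike. The labelled cell type was checked against its markers, and 7 of 8 listed erythroid markers were found, with mean RPKM between 52.6 for LMO2 and 1168 for the alpha globin gene HBAA. Of 6 markers of other blood cells, SPI1, CSF1R, CD14 and CD79B were under 1 RPKM in both samples, while CD3E stood at 2.42 and 2.91 RPKM and ITGB3 at 3.98 and 5.45. The liver marker ALB stood at 0.55 and 0.43 RPKM. SPARC, a matrix protein gene listed as a marker of cells outside blood, stood at 88.3 and 113 RPKM, while the collagen gene COL1A2 stood at 0.88 and 1.57. The part of other cells in the levels of the respiratory chain genes was not tested.

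All 70 respiratory chain genes reached 1 RPKM in each sample and count as detected, against 52.6% of all analysed rows. At 10 RPKM in each sample there were 67 of 70, against 29.9% of analysed rows, and at 100 RPKM there were 27 of 70, or 38.6%, against 4.84%. The 3 genes short of 10 RPKM were NDUFA7, COX10 and COX18. Among rows with a gene name the shares were 59.5%, 34.6% and 5.37% at the 3 levels. The median gene stood at 61.4 RPKM in replicate 1 and 61.6 in replicate 2, while the median of all analysed rows was 1.66 and 2.0. Among named nuclear genes other than small RNAs, a closer background, 60.2% reached 1 RPKM, 34.4% reached 10 and 3.97% reached 100, and the median was 3.84 and 4.43 RPKM. The respiratory chain genes spanned a 217-fold range of mean RPKM, from 6.81 for COX18 to 1481 for COX7A2.

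**Figure D1:**
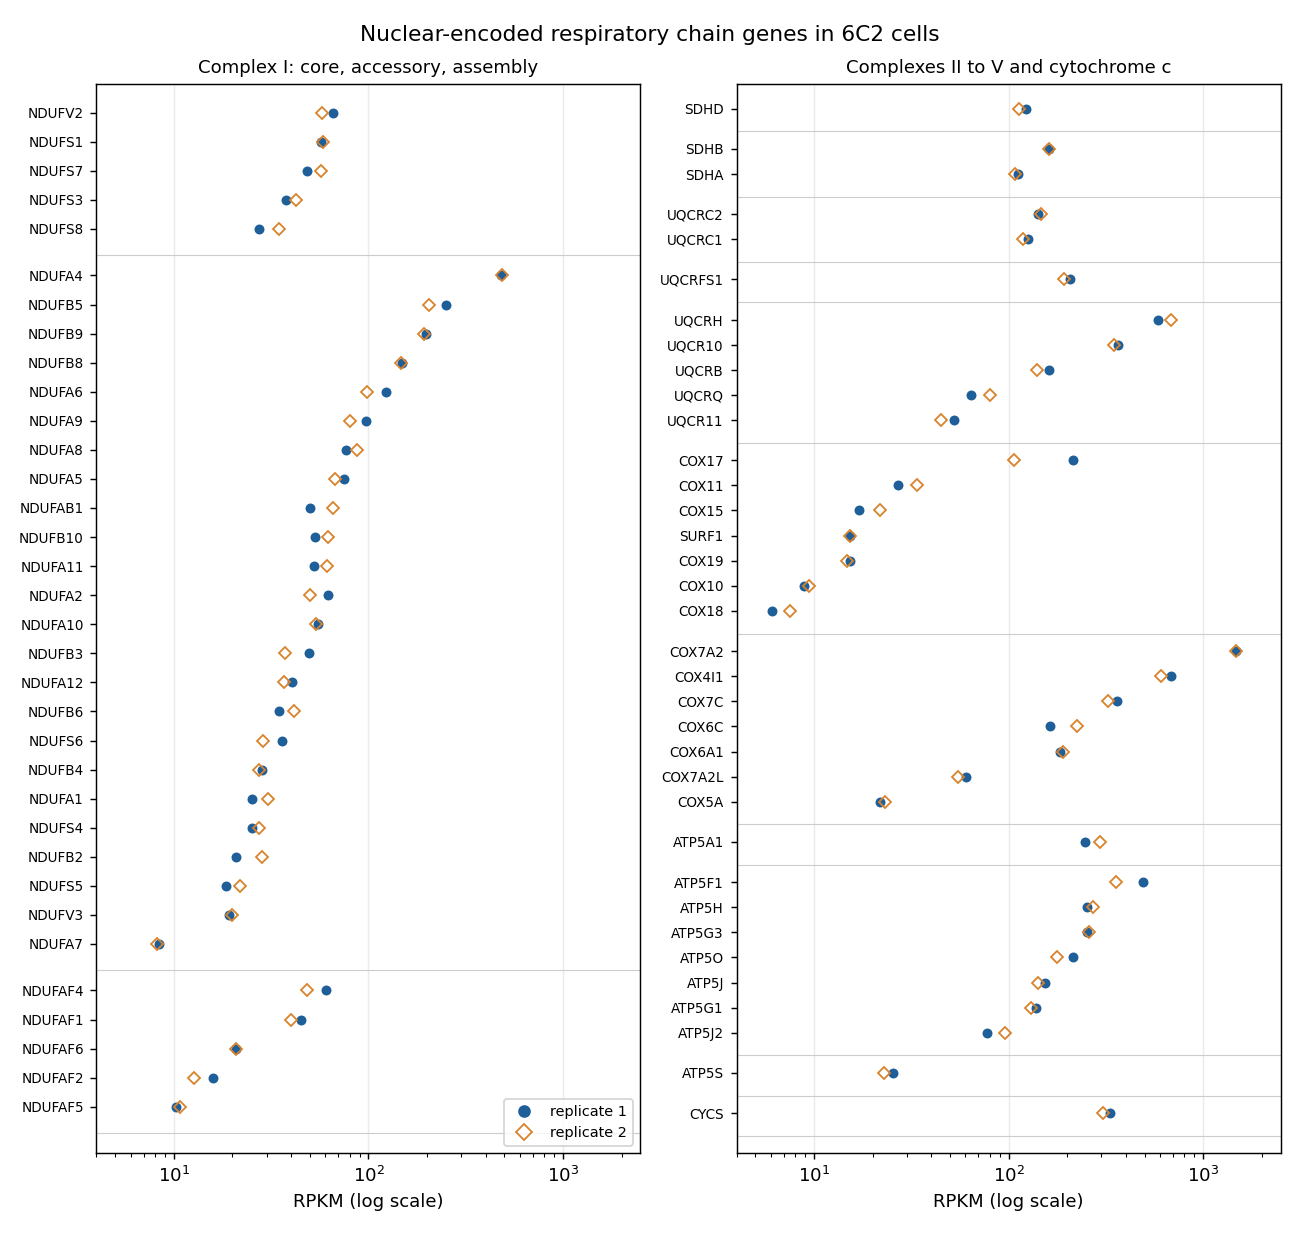
RPKM of 69 of the 70 genes in replicate 1 (filled circles) and replicate 2 (open diamonds) on a log scale, grouped by complex and role. Both samples lie close together for nearly every gene, COX17 being the widest apart at 216 and 107 RPKM.

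Complex I subunits were the lowest of the complexes, with a median of 49.8 RPKM in replicate 1 and 52.1 in replicate 2 over 30 genes. Complex I takes electrons from NADH through a peripheral arm that carries the redox centres and pumps protons in a membrane arm. Its 6 measured core subunits, which carry iron-sulfur clusters or shape the quinone site, lay between 30.98 and 61.8 mean RPKM, and none reached 100. NDUFV2, an iron-sulfur subunit at the NADH end, stood at 66.0 RPKM in replicate 1 and 57.5 in replicate 2. NDUFS1, which carries several iron-sulfur clusters, stood at 57.2 and 58.4 RPKM. NDUFS7, at the end of the chain of clusters near the quinone site, stood at 48.5 and 57.2 RPKM. NDUFV2 and NDUFS1 changed places between the samples, so their order is not settled, and NDUFS7 was below both in each sample. At the low end NDUFS3, which lies near the quinone site, stood at 37.8 and 42.5 RPKM and NDUFS8, an iron-sulfur subunit, at 27.4 and 34.6. The span within the core was 1.99-fold, and NDUFS8 was the lowest of the 6 in each sample.

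The 24 accessory subunits of complex I, which surround the core without redox centres, spread far more widely, over a 58.3-fold range of mean RPKM. Their median of 51.4 and 52.1 RPKM lay near that of the core, at 43.2 and 51.3, and without division by length the core was the higher, at 1.16 times the accessory median. NDUFA4 led at 478 RPKM in replicate 1 and 487 in replicate 2. In mammals its product has been reassigned to complex IV, and the 58.3-fold range includes it. A range also tends to be wider over the 24 accessory genes than over the fewer core genes. NDUFB5, of the membrane arm, stood at 251 and 205 RPKM, and NDUFB9, of the same arm, at 198 and 193. NDUFB8, also of the membrane arm, stood at 149 and 147 RPKM, and these were the 4 complex I genes that reached 100 RPKM in both samples. NDUFA6 followed at 123 and 97.8 RPKM. At the low end NDUFV3, of the NADH-binding part, stood at 19.3 and 19.9 RPKM. NDUFA7 was the lowest subunit gene of any complex, with 100 reads in replicate 1 and 74 in replicate 2 on a model of 299 bp. That made 8.42 RPKM, with an exact Poisson 95% interval of 6.85 to 10.2, in replicate 1 and 8.14 RPKM, with 6.39 to 10.2, in replicate 2. These intervals cover counting error only. Even their upper ends lay under NDUFV3 in the same sample.

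The 5 assembly factors of complex I, which help build the enzyme and are absent from the finished form or leave it late, had a median of 20.96 and 20.8 RPKM. This was 0.410 ± 0.016 times the median of the subunits (SD of the 2 samples, n = 2). NDUFAF4 stood at 60.9 RPKM in replicate 1 and 48.2 in replicate 2, NDUFAF1 at 45.0 and 39.9, and NDUFAF6 at 20.96 and 20.8. NDUFAF2 stood at 15.9 and 12.8 RPKM. NDUFAF5, a hydroxylase of the core subunit NDUFS7 in human cells, was lowest at 10.2 and 10.8 RPKM. The highest factors thus lay within the range of the subunits, and the classes overlapped.

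Complex II, succinate dehydrogenase, which also belongs to the citric acid cycle, had the most even levels of the complexes. Only 3 of its genes were measured, however, and the span from highest to lowest tends to be narrower over fewer genes. SDHB, the iron-sulfur subunit, stood at 162 RPKM in replicate 1 and 161 in replicate 2. SDHD, a membrane anchor, stood at 122 and 113 RPKM, and SDHA, the flavoprotein that oxidises succinate, at 111 and 108. All 3 were above 100 RPKM in both samples, and the highest mean was 1.47 times the lowest. SDHB lay above the others by more than the spread between the samples, whereas SDHD in replicate 2 lay only just above SDHA in replicate 1.

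Complex III subunits had a median of 151 RPKM in replicate 1 and 143 in replicate 2 over 8 genes, of which 6 reached 100 in both. CYC1, though among the symbols searched, was not among the 8. UQCRFS1, the Rieske iron-sulfur protein, stood at 206 and 192 RPKM. The core proteins, which face the matrix, were close to each other, with UQCRC2 at 141 and 147 RPKM and UQCRC1 at 126 and 118. The small subunits spanned the widest range. UQCRH, the hinge protein near cytochrome c1, stood at 586 RPKM in replicate 1 and 683 in replicate 2. UQCR10 stood at 364 and 350.1 RPKM and UQCRB, which lines the quinone pocket, at 162 and 140.2. UQCRQ stood at 64.5 and 80.6 RPKM. UQCR11, on a model of 166 bp, was the lowest at 52.5 and 45.0 RPKM. The small subunits thus lay both above and below the Rieske and core proteins.

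Complex IV subunits, of cytochrome c oxidase, held the highest gene and the widest range of the subunits, 66.0-fold. COX7A2 stood at 1483 RPKM in replicate 1 and 1479 in replicate 2, on a model of 184 bp with 10837 and 8275 reads. By mean RPKM it ranked 224 among the 16464 rows. COX4I1, the largest nuclear subunit and a site of ATP inhibition, stood at 684 and 607 RPKM. It held the most reads of the 70 genes in replicate 1, with 20847, and had 14183 in replicate 2. COX7C stood at 362 and 326 RPKM, COX6C at 164 and 225, and COX6A1 at 184 and 190.3. The lowest were COX7A2L at 60.2 and 54.9 RPKM and COX5A, which sits on the matrix side, at 21.7 and 23.2. COX5A had 307 and 251 reads on a model of 356 bp. Its RPKM was lower than that of every other measured subunit of complexes II to V in each sample.

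The 7 assembly factors of complex IV lay low, with a median of 15.4 RPKM in each sample, or 0.076 ± 0.011 times that of the subunits (SD, n = 2). In reads with no division by length the ratio was 0.337, the models having a median of 1215 bp for the factors and 342 bp for the subunits. The exception was COX17, a copper chaperone of the intermembrane space, with 216 RPKM in replicate 1 and 107 in replicate 2. Its model is 172 bp long and held 1472 and 561 reads. COX11, which delivers copper to the catalytic subunit, stood at 27.0 and 33.7 RPKM. COX15 and COX10, which make heme A, stood at 17.1 and 21.8 RPKM and at 8.92 and 9.41 RPKM. SURF1, whose loss causes human Leigh syndrome, stood at 15.4 RPKM in both samples. COX19 stood at 15.3 and 14.7 RPKM. COX18, which inserts a subunit into the inner membrane, was the lowest of all 70 genes at 6.09 RPKM (exact Poisson 95% interval 5.41 to 6.83) in replicate 1 and 7.53 (6.67 to 8.47) in replicate 2. Apart from COX17 these factors all lay under COX7A2L in both samples, and apart from COX17 and COX11 they also lay under COX5A, the lowest subunit.

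Complex V subunits had a median of 231 RPKM in replicate 1 and 218 in replicate 2 over 8 genes, of which 7 reached 100 in both. ATP5A1, the alpha subunit of the catalytic F1 head and the only F1 gene measured, stood at 247 and 294 RPKM. ATP5F1, subunit b of the stalk, was the highest at 493 RPKM in replicate 1 and 358 in replicate 2, and it was also among the genes that differed most between the samples. ATP5H, another stalk subunit, stood at 253 and 271 RPKM. ATP5O, which joins the stalk to the head, stood at 214 and 178 RPKM, and ATP5J, coupling factor 6 of the stalk, at 155 and 142. ATP5J2, a small membrane subunit, was the lowest at 77.2 and 95.6 RPKM. The highest was 4.93 times the lowest, a narrower span than in complexes III or IV. ATP5S, also known as coupling factor B, stood at 25.5 and 23.0 RPKM, under all 8 subunits.

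CYCS, the cytochrome c that carries electrons from complex III to complex IV and takes part in apoptosis, stood at 331 RPKM in replicate 1 and 305 in replicate 2. It lay above the medians of complexes III and IV in both samples.

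Between complexes, the median subunit of complex I was lower than that of each other complex in both samples. Relative to complex I, the median was 2.31 ± 0.20 times as high for complex II, 2.89 ± 0.20 for complex III, 4.01 ± 0.45 for complex IV and 4.404 ± 0.31 for complex V (SD, n = 2). Gene by gene, a complex V subunit exceeded a complex I subunit in both samples in 90.8% of 240 pairs, a complex II subunit in 85.6% of 90, a complex III subunit in 82.5% of 240 and a complex IV subunit in 76.7% of 210. The order of complexes IV and V was not settled: the median was higher for complex V in replicate 1 and higher for complex IV in replicate 2, and a complex V subunit was the higher in both samples in 44.6% of 56 pairs and the lower in 51.8%. Complexes III and V overlapped too, with the complex V subunit higher in 59.4% of 64 pairs. The pairs share genes and libraries, so these shares are descriptions. The order depended on the scale: in reads with no division by length, complex II stood at 4.36 times complex I, complex III at 4.61, complex IV at 1.73 and complex V at 4.52, so that complex IV came below complexes II and III. Median model lengths were 342 bp for complex IV, against 712.5 bp for complex I. With assembly factors counted in their complexes, complex IV stood at 0.937 times complex I, below it. The order of complexes IV and V also depended on where NDUFA4 was placed. With NDUFA4 moved from complex I to complex IV, complex IV stood at 5.51 times complex I, above complex V at 4.51. Each median covers only the subunits found, and SDHC, NDUFV1, COX7B and ATP5B, among others, were not analysed.

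**Figure D2:**
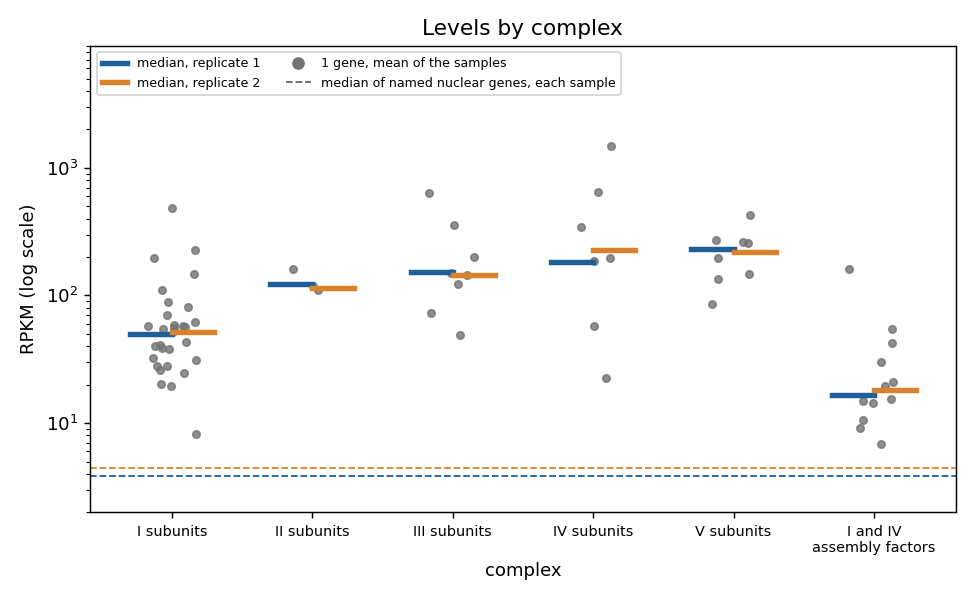
RPKM on a log scale of the subunits of each complex and of the assembly factors of complexes I and IV; points are genes (mean of the 2 samples), bars are medians in each sample and dashed lines the medians of named nuclear genes other than small RNAs, 3.84 and 4.43. Medians of complexes II to V all lie above 100 and that of complex I near 50.

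Where subunits have paralogues with different tissue patterns in mammals, few pairs could be compared. ATP5G1 and ATP5G3 encode the same mature membrane subunit c in mammals, with different targeting peptides. ATP5G3 stood at 254 RPKM in replicate 1 and 258 in replicate 2 and ATP5G1 at 138 and 131, a ratio of 1.91 ± 0.096 (SD, n = 2). In raw reads, on models of 635 bp for ATP5G3 and 1016 bp for ATP5G1, the ratio was 1.19. COX7A2 exceeded COX7A2L, which in mammals helps join complexes III and IV into supercomplexes, by 24.7-fold in replicate 1 and 26.9-fold in replicate 2. In raw reads the ratio was 13.9. The treatment of reads matching more than 1 gene is not stated in the sources, which leaves the values of such paralogues uncertain. COX4I1 and COX6A1, the forms found in most mammalian tissues, were measured, and their paralogues COX4I2 and COX6A2 were not analysed here.

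Levels differed far more between genes than between samples. Across the 70 genes, log2(mean RPKM + 1) had an SD of 1.64, while the median SD of a gene between the samples was 0.12 on the same scale. Spearman's rho between the samples was 0.985 over the 70 genes, which share both libraries. Among genes next to each other in the order of mean RPKM, 43 of 69 pairs changed order between the samples, so close ranks are not settled. Counting error did not cover the difference between the samples: chi-square per gene was 35.5, against 48.6 per row over all 11892 rows of at least 10 reads.

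Only COX17 differed by 1.5-fold or more between the samples, at 2.01-fold, and 4.49% of 6766 rows of mean RPKM at least 5 did so. After COX17, the genes that lay furthest below replicate 1 in replicate 2 were ATP5F1, at -0.46 on the log2(RPKM + 1) scale, and NDUFB3, with 49.4 and 37.2 RPKM. Furthest above were COX6C, at 0.45, NDUFB2, with 20.9 and 28.3 RPKM, and NDUFAB1, the mitochondrial acyl carrier protein, with 50.3 and 66.0 RPKM. Among models of at least 200 bp the largest difference was 1.38-fold. Of the 4 models under 200 bp, COX17 apart, COX7C differed by 1.11-fold, UQCR11 by 1.17-fold and COX7A2 by less than either. In all, 31 genes were higher in replicate 2 and 39 in replicate 1. That is 44.3% higher in replicate 2, against 58.4% of the rows of mean RPKM at least 5. A difference between single samples has no replicate behind it.

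**Figure D3:**
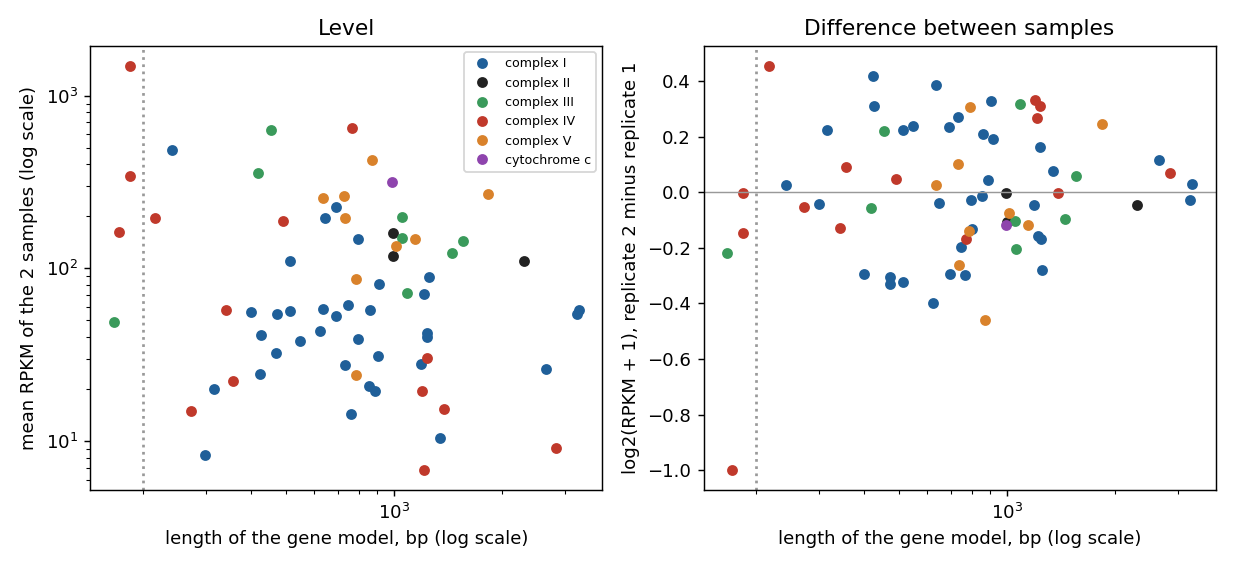
Left, mean RPKM against the length of the gene model, both on log scales; right, the difference in log2(RPKM + 1), replicate 2 minus replicate 1, against length; each point is 1 of the 70 genes, coloured by complex, and the dotted line marks 200 bp. COX17 is the lowest point in the right panel, and all other genes lie between -0.46 and 0.45.

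Gene models of the chain were short, with a median of 785.5 bp against 1381 bp for all analysed rows. Over the 70 genes, Spearman's rho of length with mean RPKM was -0.15 and with summed reads 0.35. Both are descriptions, and the points share their libraries.

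Many of the genes began close to a neighbour read from the opposite strand, an arrangement in which a single stretch of DNA can serve as promoter for a gene on each side. With starts at most 1000 bp apart, 21 of 70 genes, 30.0%, had such a divergent neighbour. Over all analysed rows the share was 8.03%, and among named nuclear genes other than small RNAs that reached 1 RPKM in both samples it was 13.1%, or 14.9% of those that reached 10 RPKM. No pair held 2 respiratory chain genes. Of the 21 neighbours, 1 was a microRNA gene and 19 reached 1 RPKM in both samples. The share was 52.6% of all analysed rows and 60.2% of named nuclear genes other than small RNAs. The respiratory chain gene was the higher of the pair in both samples in 17 cases. The respiratory chain genes of these pairs had medians of 61.9 and 58.4 RPKM and their neighbours 19.1 and 19.0. Named nuclear genes other than small RNAs had medians of 3.84 and 4.43. For divergent pairs of other genes, neither the detection of the neighbour nor the higher gene of the pair was counted, so the counts of 19 and 17 are descriptions.

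The neighbours included genes of the mitochondrial ribosome as well as genes of other kinds, and the share of mitochondrial genes among them was not worked out. ATP5J overlapped by 13 bp at its start with GABPA, which encodes a subunit of the factor GABP, also called nuclear respiratory factor 2, a regulator of respiratory chain genes in mammals. ATP5J stood at 155 and 142 RPKM and GABPA at 71.6 and 68.1. NDUFB5 lay 147 bp from MRPL47, a gene of the mitochondrial ribosome, with 61.6 RPKM in replicate 1 and 54.0 in replicate 2. NDUFS6 lay 138 bp from MRPL36, of the same ribosome, with 35.8 and 28.8 RPKM for NDUFS6 and 15.6 and 11.1 for MRPL36. COX15 lay 119 bp from CUTC, which has been linked to copper handling, and the genes were close in level, with 17.1 and 21.8 RPKM for COX15 and 16.5 and 19.4 for CUTC. SURF1 lay 58 bp from SURF2 of the surfeit cluster, which stood at 43.4 and 44.7 RPKM. COX4I1 lay 234 bp from EMC8, a gene of the endoplasmic reticulum membrane complex, at 46.4 and 45.3 RPKM, against 684 and 607 RPKM for COX4I1. Among the pairs named so far, levels were nearest for COX15 and CUTC and furthest apart for COX4I1 and EMC8. Other pairs lay further apart, such as UQCRC2, at 141 and 147 RPKM, and CRYM, at 4.80 and 5.41.

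Of the 4 neighbours higher than their respiratory chain gene in both samples, the elongation factor gene EEF1B2, 383 bp from NDUFS1, was the highest at 1226 and 1122 RPKM. The ribosomal protein gene RPS28 stood at 60.6 and 73.4 RPKM beside NDUFA7, and WDR4 at 43.2 and 40.8 beside NDUFV3. Least alike was MORN5, with 3 reads in replicate 1 and 0 in replicate 2, at 129 bp from NDUFA8 with 76.3 and 87.2 RPKM.

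**Figure D4:**
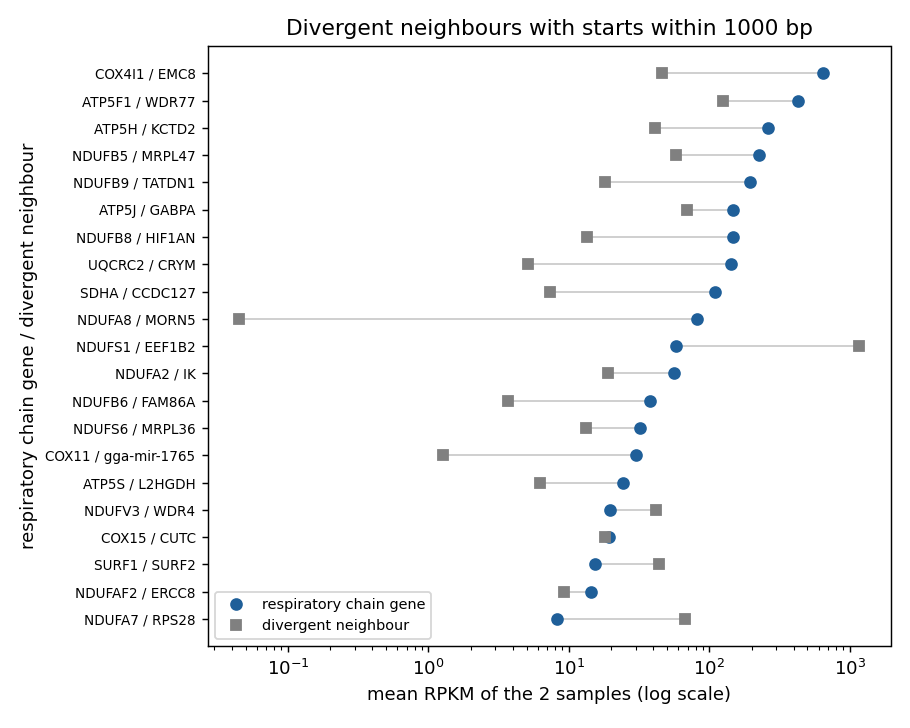
Mean RPKM on a log scale of 21 respiratory chain genes (circles) and of the divergent neighbour of each with a start at most 1000 bp away (squares), sorted by the level of the respiratory chain gene. In 17 pairs the circle lies to the right, and EEF1B2, RPS28, WDR4 and SURF2 are the neighbours to the right of their circle.

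Of the 70 genes, 7 overlapped another row of the table. The same share over all analysed rows was not worked out, so this count is a description only. The sources do not state whether counting used strand, and reads in shared stretches cannot be assigned to either gene. NDUFA1 shared 269 bp with UPF3B on the opposite strand, and these genes held 731 and 679 reads for NDUFA1 and 726 and 658 for UPF3B. NDUFA2 shared 80 bp with TMCO6 on the opposite strand. Its whole span of 1402 bp also lay within that of CD14 on the same strand, which held 2 reads in each sample. COX10 lay within the span of HS3ST3A1 on the opposite strand, which held 2 reads in replicate 1 and 0 in replicate 2. The span of COX7C on chromosome Z holds the small nucleolar RNA snoZ39, at 1892 and 1757 RPKM, on the same strand, and its 4658 and 3312 reads exceeded the 2643 and 1826 of COX7C itself.

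Subunits encoded by the mitochondrial genome were measured in the same libraries. The 7 subunits of complex I there had a median of 142 RPKM in replicate 1 and 208 in replicate 2, MT-CYB of complex III stood at 285 and 375, COX1 and MT-CO3 of complex IV at 735 and 859 and at 1636 and 1751, and MT-ATP6 and MT-ATP8 of complex V at 344 and 504 and at 505 and 676. In each of these complexes the median of the mitochondrial subunits exceeded that of the nuclear ones in both samples. MT-ND2, the highest of the 7 complex I subunits by mean, stood at 720 RPKM in replicate 1 and 391 in replicate 2. The other mitochondrial subunits measured were all higher in replicate 2.

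Other lists of pathway genes had medians under that of all 56 subunits, at 76.7 RPKM in replicate 1 and 83.9 in replicate 2, although single genes lay above it. Of a further list of 28 genes, mostly assembly factors, 14 were found. All 14 were detected, against 52.6% of all analysed rows, with a median of 20.4 RPKM in replicate 1 and 21.2 in replicate 2. ATPIF1, an inhibitor of the ATP synthase when it runs in reverse, led on a model of 143 bp with 213 and 233 RPKM, followed by SCO1, a copper chaperone of complex IV, at 76.5 and 78.2. Genes of ubiquinone synthesis and of other donors to ubiquinone were detected for 13 of 13 found, out of 14 listed, against the same 52.6%. Their median was 17.1 and 16.1 RPKM, and the highest were COQ9 at 77.7 and 77.2 and PDSS1 at 38.9 and 35.6.

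Regulators of mitochondrial biogenesis were detected for 8 of 9 found, out of 12 listed, against 52.6% of all analysed rows. LRPPRC, which stabilises mitochondrial messenger RNAs, stood at 128 and 126 RPKM. GABPA followed, and TFAM, which packages and transcribes mitochondrial DNA, stood at 32.2 and 33.9. The coactivator gene PPARGC1A stood at 5.43 and 6.82 RPKM and PPRC1 at 1.91 and 3.35, while PPARGC1B was under 1 in replicate 1 at 0.51 and above it in replicate 2 at 1.29. NRF1, GABPB1 and ESRRA were not analysed here.

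Beside other gene families, the 70 genes had a median between those of mitochondrial ribosomal protein genes, with 46.4 and 42.5 RPKM over 61 genes, and of proteasome subunit genes, with 99.98 and 92.2 over 27. All 61 mitochondrial ribosomal protein genes and all 27 proteasome subunit genes also reached 1 RPKM in both samples. At 10 RPKM there were 60 and 25 of them. At 100 RPKM in both samples there were 38.6% of respiratory chain genes, 13.1% of mitochondrial ribosomal protein genes and 44.4% of proteasome subunit genes. The 70 genes include 12 assembly factors, and among the 56 subunits alone the share was 44.6%. These differences between families were not tested.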

How the data were processed

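Per the labels' protocols, RNA was treated with DNase, depleted of ribosomal RNA, fragmented with RNase III and made into SOLiD libraries without a described poly(A) selection. The authors deposited, for every gene, read counts and RPKM of each sample. The sources used here name no aligner, counting tool or genome build, and no coordinates are printed. Every deposited RPKM was recomputed from count, length and 1 total per sample within 0.006 plus 0.01%.

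Rows with neither symbol nor reads were left out. Detection meant 1 RPKM or more in each sample. Medians, ratios and log2(RPKM + 1) differences were computed per sample, and intervals are exact Poisson at 95%. Divergent neighbours had opposite strands and starts at most 1000 bp apart, or overlapping by at most 100 bp. That comparison, and the chromosome classes, were chosen after the data were seen. Difference calculations were tested on simulated Poisson counts with set folds, which checks the arithmetic and not the spread between real libraries. Of the 70 symbols, 67 matched RefSeq (GRCg7b) and 2 more through a synonym. In the other direction, 25 RefSeq symbols that the same rule would take matched none of the 70 by symbol or synonym. A measured gene that RefSeq lists under another symbol, such as the unmatched ATP5F1, may be among them.

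The members and lists were chosen with earlier results of these data known. Named genes were the 3 highest and 2 lowest of each role class, complex II, paralogue groups, CYCS, SURF1, and the 3 largest sample differences each way; others were named after their values were seen. The values of 1 of the 70 genes are not reported here singly. Alternatives tried were other thresholds, length scalings, library totals, role assignments and leaving out each sample. Calculations ran in Python 3.11.15 (pandas 2.3.3, numpy 2.4.6), exact intervals in scipy 1.17.1 and plots in matplotlib 3.10.9.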

Additional observations from a re-analysis of the deposited data

How the results depend on the processing

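No paired analysis was possible because the series has 1 group. Among the alternatives, 19 values moved by more than the spread between the samples and are given here. With 2 samples, leaving out either gives the value of the other, which cannot lie beyond that spread, so it says nothing about stability. It gave 70 to 70 detected genes, 67 to 67 at 10 RPKM, 27 to 28 at 100 RPKM, and medians of 61.4 to 61.6 RPKM. With small RNAs and mitochondrial reads out of the library total the median became 100.6 RPKM, in reads scaled to library size with no division by length 51.5, and with models of at least 200 bp 60.2. Without division by length the medians relative to complex I became 4.36 for complex II, 4.61 for complex III and 1.73 for complex IV. The ratio of core to accessory subunits of complex I became 1.16, turning its direction from 0.91, and those of assembly factors to subunits 0.483 for complex I and 0.337 for complex IV. In raw reads ATP5G3 over ATP5G1 was 1.19 and COX7A2 over COX7A2L 13.9. With assembly factors counted in, complexes III, IV and V stood at 3.14, 0.937 and 4.78 times complex I, so complex IV fell below it. Complex IV stood at 5.51 with NDUFA4 counted there, against 4.51 for complex V. With models of at least 200 bp complex IV stood at 3.47, and for means of log2 values complex V stood at 3.82. The background share detected was 59.5% of named rows and 60.2% (60.15) of named nuclear rows without small RNAs. Starts within 500 bp and 2000 bp gave 17 and 26 genes with a divergent neighbour, against 5.46% and 11.5% of rows; these limits were chosen after seeing the data.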

Other observations

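The 70 genes were spread over most chromosomes, with 29 on chromosomes 1 to 5, 9 on chromosomes 6 to 10, 28 on chromosomes 11 to 28 and 4 on chromosome Z. Those on chromosomes 11 to 28 made up 40% of the genes, against 31.7% of the 6766 rows of mean RPKM at least 5. The 4 genes on chromosome Z were ATP5A1, COX7C, NDUFS4 and NDUFAF2, at mean RPKM of 271, 344, 26.2 and 14.3.

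The difference between the samples varied with the chromosome class. On chromosomes 1 to 5, 9 of 29 respiratory chain genes were higher in replicate 2, and the median difference in log2(RPKM + 1), replicate 2 minus replicate 1, was -0.12. On chromosomes 11 to 28, 15 of 28 were higher in replicate 2, and the median difference was 0.05. The rows of mean RPKM at least 5 gave 54.2% and 64.5% higher in replicate 2 for the same classes, with medians of 0.02 and 0.09. Both sets were thus lower on chromosomes 1 to 5 than on chromosomes 11 to 28, and the cause was not tested.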
